A study of Homo sapiens with 12 samples.

Results

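The 49 genes described here drive, mark or restrain the human cell cycle, and they were taken by symbol from expression tables of 56266 Ensembl genes, where each symbol matched 1 gene. By role they are 5 genes of G1 (the D-type cyclins and their kinases), 6 brakes (CDK inhibitors and RB1), 7 genes of the G1/S step, 12 of DNA replication (S), 17 of G2 and mitosis (G2/M), and the growth regulators MYC and MYCN. All but CDKN2C reached 1 TPM, a length-scaled share of all transcripts, in at least 2 libraries, so 48 of the 49 entered the tests beside 21543 genes in all.

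The RNA-Seq study asked how loss of the transcription factor GATA2 affects blood formation from human ESCs. The cells came from H1, an established human embryonic stem cell line, and from an H1 clone in which a neomycin cassette disrupts exon 3 of both GATA2 alleles (GATA2-/-), so every GATA2-/- library descends from 1 clone. Undifferentiated GATA2-/- hESCs, hemogenic endothelium (HE, the CD34+CD31+CD43- cells that precede blood, sorted at day 8) and hematopoietic progenitors (HPC, sorted as CD34+CD43+ on day 9) were compared, with HEs and HPCs of both genotypes grown on OP9, a mouse bone marrow stromal line. Each of the 5 groups had 2 libraries, 10 in all, and the 2 WT hESC samples were not analysed here.

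A cell enters the cycle when D-type cyclins activate CDK4 and CDK6, which relieve the block that RB1 holds on the E2F factors. E2F then turns on cyclin E and the replication genes, among them the MCM helicase, PCNA and the enzymes that make nucleotides, and the INK4 inhibitors (CDKN2A, CDKN2C, CDKN2D) and CIP/KIP inhibitors (CDKN1A, CDKN1B) hold the kinases back. Later in the cycle FOXM1 and MYBL2 turn on cyclin B, the mitotic kinases and the spindle checkpoint, mostly through the CHR promoter element and CCAAT boxes. Blood emerges from HE by the endothelial-to-hematopoietic transition (EHT), in which flat endothelial cells round up and begin to express blood genes.

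The deposited values are TPM, which is scaled by gene length and to a common total (998299 to 999106 per library), so levels can be compared between genes but the read depth of a library is unknown. Sorted cells differed in markers of their stage. The endothelial CDH5 was at 514 to 538 TPM in WT HEs and 608 to 614 in GATA2-/- HEs against 53.9 to 137 in HPCs. A set of 8 pan-hematopoietic genes summed to 549 to 733 in HPCs against 76.1 to 206.3 in HEs. The pan-leukocyte PTPRC was at 0 in all HEs, at no more than 3.09 in HPCs and at 0.56 to 3.06 in hESCs, so it did not separate HPCs from hESCs. The pluripotency gene POU5F1 was at 2855 and 3332 in hESCs and at most 3.02 elsewhere. Stromal and mesenchymal genes, COL1A1 among them, summed to 368 to 681 TPM in HEs and 91.2 to 218 in HPCs. Mitochondrial transcripts took 14.8% to 15.1% of TPM in GATA2-/- HPCs and 8.66% to 9.61% in WT HPCs. The part of these differences in cell makeup in the results was not tested, and in sorted bulk RNA fewer cycling cells and less RNA per cell cannot be told apart. GATA2 itself was at 111 and 94.1 TPM in GATA2-/- HEs against 107 and 78.03 in WT HEs, and at 112 and 83.8 in GATA2-/- HPCs against 290.1 and 204 in WT HPCs, but a gene-level value also counts transcripts of the disrupted locus and does not check the labels. Replicate 2 of every HE and HPC group carries a tag in its file header that replicate 1 lacks, and the 2 hESC headers end in different tags. What these tags stand for is not given. The labels do not say that replicates came from separate cultures, and p-values then measure only the spread between these libraries.

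The promoters of the S and G2/M genes are shown because these groups hold most of the members that fell from hESCs. They are also 12 and 17 of the 48 tested members, and the relation of promoter letters to the falls was not tested. RefSeq promoter windows (GRCh38.p14, 250 bases before to 50 bases after the gene start) were found for 39 of the 49 genes. E2F sites (TTTCCCGC, TTTCGCGC, TTTGCCGC or TTTGGCGC, either strand, overlapping matches allowed) were in 8 of 10 S promoters (80%) and 4 of 5 G1/S promoters (80%), in 1 of 14 G2/M promoters (7.14%, CDK1), and in 3.33% of all 27305 promoters. The CHR element (TTTGAA or TTCGAA, either strand) was in 8 of 14 G2/M promoters (57.1%), 2 of 10 S promoters (20%) and 16.6% of all promoters, and CCAAT in 71.4%, 70% and 35.7%. CHR and CCAAT stood together in 7 of the 14 G2/M promoters (50%) against 6.58% of all promoters. Of the G2/M genes that fell from hESCs, the windows of BUB1, BUB1B and CDC20 held TTTGAA or TTCGAA. Those of CCNB1, MYBL2, CDC25C and AURKB held neither. BIRC5 and FOXM1, which also fell, had no window. Each gene had 1 window, which may not lie at its main start, and other starts were not searched. Of the G2/M genes that passed in no comparison, the windows of MKI67, TOP2A, CCNB2, CDK1 and PLK1 held TTTGAA or TTCGAA. Those of CCNA2 and CDC25B held neither, and AURKA had no window. Other spellings of the CHR were not searched, so a window without a match may still hold one. A match describes the letters in the window and not a bound site. The 200 bases before the gene start of 3 G2/M genes and 3 S genes are printed 5′ to 3′ on the gene's strand, with CHR elements in capitals for the G2/M genes and E2F sites in capitals for the S genes, a match on the other strand showing as its reverse complement. They are CDC20 at chr1:43358781-43358980 (plus strand), PLK1 at chr16:23678689-23678888 (plus), BUB1B at chr15:40160869-40161068 (plus), PCNA at chr20:5126623-5126822 (minus), MCM6 at chr2:135876444-135876643 (minus) and MCM7 at chr7:100101398-100101597 (minus).
CDC20: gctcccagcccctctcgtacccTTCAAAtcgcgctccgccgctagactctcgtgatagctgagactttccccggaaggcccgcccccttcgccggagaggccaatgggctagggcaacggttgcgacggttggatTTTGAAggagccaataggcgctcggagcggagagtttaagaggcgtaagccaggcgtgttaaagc
PLK1: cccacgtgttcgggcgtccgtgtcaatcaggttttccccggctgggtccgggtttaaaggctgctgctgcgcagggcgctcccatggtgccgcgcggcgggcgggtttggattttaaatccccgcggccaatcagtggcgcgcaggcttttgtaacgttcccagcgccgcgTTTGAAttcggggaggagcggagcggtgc
BUB1B: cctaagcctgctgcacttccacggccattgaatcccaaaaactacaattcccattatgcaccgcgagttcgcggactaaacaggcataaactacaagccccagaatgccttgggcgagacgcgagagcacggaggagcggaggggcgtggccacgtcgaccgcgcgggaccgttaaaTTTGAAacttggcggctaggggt
PCNA: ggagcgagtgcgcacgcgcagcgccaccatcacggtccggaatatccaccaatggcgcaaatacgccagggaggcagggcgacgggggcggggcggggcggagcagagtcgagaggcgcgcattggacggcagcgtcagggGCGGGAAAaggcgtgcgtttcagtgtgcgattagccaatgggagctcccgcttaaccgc
MCM6: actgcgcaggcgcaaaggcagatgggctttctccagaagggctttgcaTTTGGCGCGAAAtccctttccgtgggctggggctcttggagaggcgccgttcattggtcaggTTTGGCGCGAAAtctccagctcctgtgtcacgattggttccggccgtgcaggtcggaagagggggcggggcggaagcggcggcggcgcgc
MCM7: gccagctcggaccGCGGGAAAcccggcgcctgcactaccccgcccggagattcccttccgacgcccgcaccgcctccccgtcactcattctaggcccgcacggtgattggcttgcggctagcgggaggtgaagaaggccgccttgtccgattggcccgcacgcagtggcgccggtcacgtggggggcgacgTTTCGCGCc
CDC20 holds 2 CHR elements, the nearer starting 65 bases before the gene start, PLK1 1 at 29 bases and BUB1B 1 at 23 bases. PCNA holds 1 E2F site. MCM6 holds 4 matches as 2 pairs that overlap on opposite strands. MCM7 holds 2, the nearer starting 9 bases before the gene start.

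**Figure D1:**
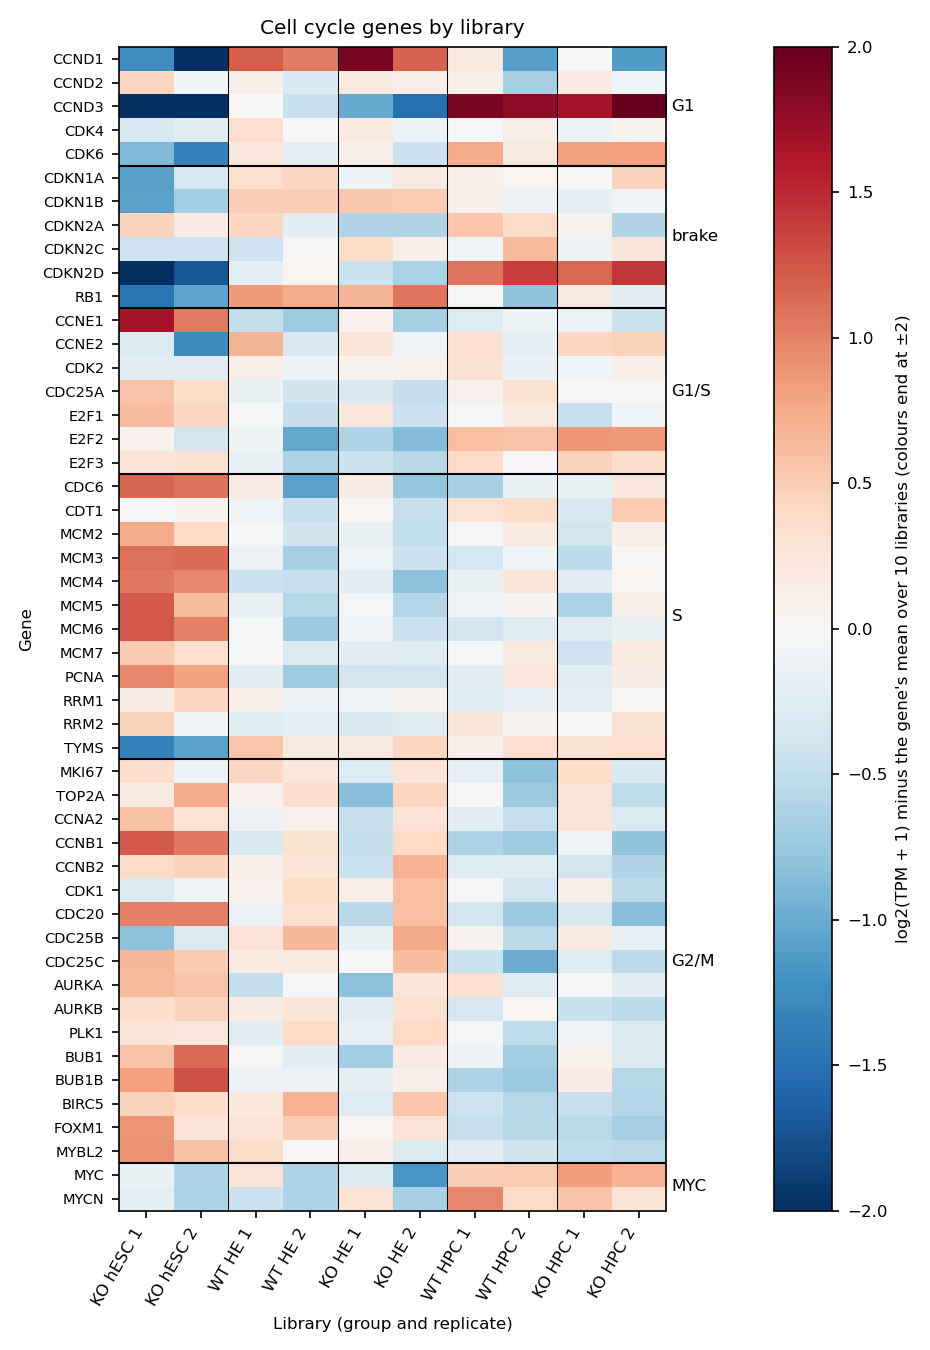
The 49 genes (rows, grouped by role) in the 10 libraries (columns), coloured by log2(TPM + 1) minus the gene's mean over the libraries, from blue (lower) to red (higher), with colours ending at 2 log2 units. CCND3 and CDKN2D are red in all 4 HPC libraries, most S genes are deepest red in the hESC libraries, and in the HE and HPC columns the S and G2/M blocks change between replicates 1 and 2.

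Counted over the 48 tested members at a limma adjusted p under 0.05, 3 rose and 2 fell from WT HEs to WT HPCs, 6.25% and 4.17%, where 3.32% and 6.59% of all tested genes did. From GATA2-/- HEs to HPCs 5 rose and 1 fell, 10.4% and 2.08% against 5.5% and 7.24%. From GATA2-/- hESCs to GATA2-/- HEs 6 rose and 15 fell, 12.5% and 31.2% against 13.9% and 16.1%, and from the same hESCs to GATA2-/- HPCs 8 rose and 14 fell, 16.7% and 29.2% against 14.2% and 16.4%. Most of the genes that fell from hESCs were S and G2/M genes, which are 12 and 17 of the 48 tested. Leaving out hESC replicate 1 lowered the last counts to 10 and 9 calls, and leaving out WT HE replicate 1, WT HE replicate 2 or WT HPC replicate 2 gave 1 in the WT comparison. GATA2-/- HEs to HPCs had 2 calls without GATA2-/- HE replicate 2 or GATA2-/- HPC replicate 2. The comparisons with hESCs share the 2 hESC libraries, and those libraries were of the knockout line only.

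Among the members the largest difference of the EHT was in CCND3, which rose in both genotypes, by 2.05 on the log2 scale in WT and 3.10 in GATA2-/-, while CCND1, the most abundant D-type cyclin of HEs, fell in GATA2-/- cells. CCND3 (ENSG00000112576, hg19 chr6:41902672-42018095) is the D-type cyclin that many blood lineages use. Its TPM was 24.7 and 22.1 in GATA2-/- hESCs, 113 and 82.1 in WT HEs, 55.2 and 38.8 in GATA2-/- HEs, 416 and 390.1 in WT HPCs, and 355 and 459 in GATA2-/- HPCs. The 4 HPC libraries all lay above the 4 HE libraries, which lay above the hESCs. Relative to the HEs of its genotype, the difference of log2(TPM + 1) in HPCs was 2.05 ± 0.22 in WT (standard error after ±, adjusted p = 0.000906) and 3.10 ± 0.22 in GATA2-/- (adjusted p = 0.000203), 4.16- and 8.55-fold. It remained called in all 10 fits that left out 1 library. CCND3 also rose from hESCs to HEs of the GATA2-/- line (0.96 ± 0.22, adjusted p = 0.0121), a call that ended without either hESC library or without GATA2-/- HE replicate 1 (adjusted p up to 0.0915), and from hESCs to HPCs (4.05 ± 0.22, adjusted p = 6.44e-06).

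CCND1 (ENSG00000110092, hg19 chr11:69455924-69469242), which couples growth factor and adhesion signals to G1, ran the other way. Its TPM was 61.9 and 35.7 in GATA2-/- hESCs, 345 and 305 in WT HEs, 556 and 338 in GATA2-/- HEs, 171 and 68.5 in WT HPCs, and 145 and 68.3 in GATA2-/- HPCs. All HE libraries lay above all HPC and hESC libraries. It rose from GATA2-/- hESCs to GATA2-/- HEs (3.18 ± 0.49, adjusted p = 0.00148) and fell from GATA2-/- HEs to HPCs (−2.11 ± 0.49, adjusted p = 0.0245). The WT difference was −1.57 ± 0.49 and did not pass (adjusted p = 0.0863), and the fall in GATA2-/- cells was lost when either hESC library, either GATA2-/- HE library or GATA2-/- HPC replicate 2 was left out (adjusted p 0.066 to 0.149). The 2 HPC libraries of each genotype differed more than 2-fold, with the higher value in replicate 1.

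As a share of the summed TPM of the 3 D-type cyclins, CCND3 took 20.4% and 26.8% in hESCs, 23.2% and 20.2% in WT HEs, 8.62% and 9.58% in GATA2-/- HEs, 67.7% and 82.2% in WT HPCs, and 67.1% and 83.3% in GATA2-/- HPCs. CCND1 took 71% and 74.8% in WT HEs, 86.8% and 83.5% in GATA2-/- HEs, and 12.4% to 27.8% in HPCs. The sum itself ran from 405 to 641 TPM over HEs and HPCs with the stages overlapping, against 82.4 and 121 in hESCs, so the composition changed at the EHT while the total of the 3 cyclins stayed in 1 range.

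The other G1 genes changed less. CCND2 ranged from 15.9 to 34.8 TPM over the 10 libraries and CDK4 from 280.3 to 441, and neither passed in any comparison. CDK6, the partner kinase prominent in blood progenitors, was 3.95 and 2.60 in GATA2-/- hESCs, 9.54 and 6.98 in WT HEs, 8.78 and 5.79 in GATA2-/- HEs, 14.3 and 9.41 in WT HPCs, and 14.9 and 15.2 in GATA2-/- HPCs. It rose from hESCs to HPCs of the GATA2-/- line (1.93 ± 0.33, adjusted p = 0.00258), and the GATA2-/- HPC libraries lay above their HEs without passing (0.98 ± 0.33, adjusted p = 0.0953). Of CDK4's exonic bases, 44.2% are shared with TSPAN31 on the opposite strand, whose TPM was 9.08 to 33.9, and 10.4% of CCND1's with LTO1. The sources used here do not say whether counting used strand.

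**Figure D2:**
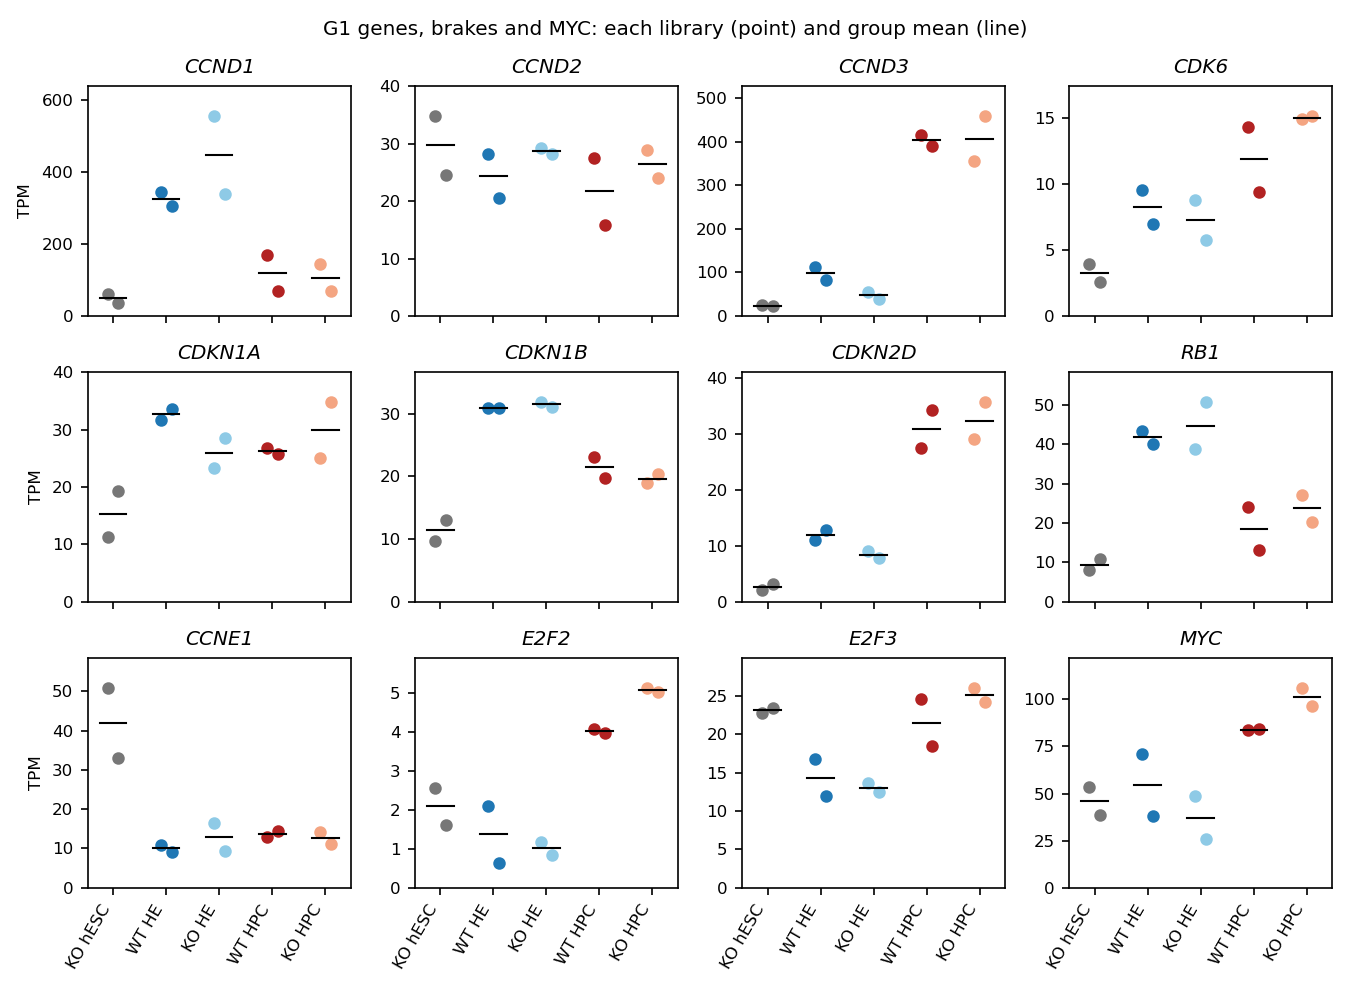
TPM (vertical axes, linear from 0) of 12 genes of the G1, brake, G1/S and MYC roles in the 5 groups, with a point for each library and a line at the mean of 2. CCND1 is highest in HEs, CCND3 and CDKN2D are highest in HPCs, RB1 and CDKN1B are highest in HEs, and CCNE1 is highest in hESCs.

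Among the brakes, CDKN2D (p19INK4D, an inhibitor of CDK4 and CDK6, ENSG00000129355, hg19 chr19:10677136-10679735) rose together with CCND3, whereas RB1 fell in WT. CDKN2D TPM was 2.19 and 3.15 in GATA2-/- hESCs, 10.98 and 12.9 in WT HEs, 9.11 and 7.79 in GATA2-/- HEs, 27.4 and 34.3 in WT HPCs, and 29.03 and 35.7 in GATA2-/- HPCs. Every HPC library was above every HE library and every HE library above both hESC libraries. The HPC minus HE difference was 1.30 ± 0.26 in WT (adjusted p = 0.0143) and 1.82 ± 0.26 in GATA2-/- (adjusted p = 0.00236). The WT call ended without WT HPC replicate 2 or without either WT HE library (adjusted p 0.0636 to 0.0941), and the GATA2-/- call held in all 10 fits. Against GATA2-/- hESCs the gene was higher in HEs (1.37 ± 0.26, adjusted p = 0.00392) and in HPCs (3.19 ± 0.26, adjusted p = 4.27e-05).

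RB1 (ENSG00000139687, hg19 chr13:48877880-49173572), the pocket protein that holds E2F, was highest in HEs. Its TPM was 8 and 10.9 in GATA2-/- hESCs, 43.4 and 40.1 in WT HEs, 38.7 and 50.8 in GATA2-/- HEs, 23.99 and 13.1 in WT HPCs, and 27.1 and 20.3 in GATA2-/- HPCs. HE libraries of both genotypes were above all HPC and hESC libraries. RB1 rose from hESCs to HEs of the GATA2-/- line (2.13 ± 0.31, adjusted p = 0.000988) and was also higher in its HPCs than in hESCs (1.25 ± 0.31, adjusted p = 0.0149, up to 0.121 without hESC replicate 1 or HPC replicate 1). The fall from WT HEs to WT HPCs was −1.19 ± 0.31 (adjusted p = 0.0438), and 9 of the 10 fits without 1 library lost it. Without WT HPC replicate 2 it was −0.77 (adjusted p = 0.207), and only without WT HPC replicate 1 was it still called. In GATA2-/- cells it was −0.89 ± 0.31 and did not pass (adjusted p = 0.1).

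CDKN1B (p27), which restrains CDK2, was 9.78 and 13.1 in GATA2-/- hESCs, 30.98 and 30.9 in WT HEs, 31.9 and 31.1 in GATA2-/- HEs, 23.2 and 19.8 in WT HPCs, and 18.9 and 20.4 in GATA2-/- HPCs. It rose from hESCs to HEs of the GATA2-/- line (1.40 ± 0.20, adjusted p = 0.00106) and to HPCs (0.74 ± 0.20, adjusted p = 0.0236, lost without hESC replicate 1 or either HPC library, up to 0.0889). The HPC libraries of both genotypes lay below all HE libraries, with differences of −0.51 ± 0.20 in WT and −0.66 ± 0.20 in GATA2-/-, and neither difference passed (adjusted p = 0.175 and 0.0717). CDKN1A (p21, a p53 target) was 11.3 and 19.3 in GATA2-/- hESCs, 31.6 and 33.6 in WT HEs, 23.3 and 28.6 in GATA2-/- HEs, 26.8 and 25.7 in WT HPCs, and 25.01 and 34.8 in GATA2-/- HPCs. It was higher in GATA2-/- HPCs than in hESCs (0.95 ± 0.27, adjusted p = 0.0288), a call lost without hESC replicate 1 (0.59, adjusted p = 0.162) or HPC replicate 2 (adjusted p = 0.155). CDKN2A (p16INK4A and ARF) was listed between 0 and 1.23 TPM and CDKN2C (p18INK4C) between 0 and 1.10 in every library, levels at which the added 1 compresses log2 differences. CDKN2A shares 15.3% of its exonic bases with the antisense gene CDKN2B-AS1.

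At the G1/S step the cyclin E genes and the E2F factors did not move together. CCNE1, the cyclin that drives entry into S, was 50.9 and 33.1 in GATA2-/- hESCs, 10.9 and 9.08 in WT HEs, 16.4 and 9.39 in GATA2-/- HEs, 12.8 and 14.3 in WT HPCs, and 14.2 and 11.2 in GATA2-/- HPCs. Both hESC libraries lay above the other 8, with a difference of −1.64 ± 0.32 in GATA2-/- HEs (adjusted p = 0.0046) and −1.62 ± 0.32 in GATA2-/- HPCs (adjusted p = 0.00478), and each call was just lost without hESC replicate 1 (adjusted p = 0.0526 and 0.0546). Its paralog CCNE2, which shares 37.1% of its exonic bases with other genes, nearly all with INTS8, was at 2.35 to 11.96 TPM and passed in no comparison. CDC25A, the phosphatase that activates CDK2, was lower in GATA2-/- HEs than in hESCs (19.5 and 17.1 against 36.5 and 31.6 TPM, −0.86 ± 0.20, adjusted p = 0.0109, lost without hESC replicate 1 or HE replicate 2 at up to 0.0643). CDK2 stayed between 37.5 and 54.5 TPM and E2F1 between 17.3 and 38.02, and neither passed.

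E2F2 and E2F3, activating members of the E2F family, rose from HEs to HPCs in the GATA2-/- line. E2F2 was 2.57 and 1.61 in GATA2-/- hESCs, 2.11 and 0.64 in WT HEs, 1.18 and 0.84 in GATA2-/- HEs, 4.07 and 3.99 in WT HPCs, and 5.14 and 5.02 in GATA2-/- HPCs, a difference of 1.60 ± 0.40 (adjusted p = 0.0322) in GATA2-/- and 1.16 ± 0.40 in WT, which did not pass (adjusted p = 0.119). E2F3 was 22.8 and 23.4 in GATA2-/- hESCs, 16.8 and 11.9 in WT HEs, 13.6 and 12.4 in GATA2-/- HEs, 24.6 and 18.4 in WT HPCs, and 26.1 and 24.1 in GATA2-/- HPCs, a difference of 0.90 ± 0.24 (adjusted p = 0.0389) in GATA2-/- and 0.56 ± 0.24 in WT (adjusted p = 0.2). In both genotypes every HPC library lay above the HE libraries for both genes. Their GATA2-/- calls were each lost in 6 of the 10 fits without 1 library, namely without any hESC, GATA2-/- HE or GATA2-/- HPC library, with adjusted p up to 0.155 for E2F2 and 0.168 for E2F3. E2F3 was also lower in GATA2-/- HEs than in hESCs (−0.78 ± 0.24, adjusted p = 0.0345, lost without any of those 4 libraries at up to 0.137).

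Replication genes were 1 of the blocks that set hESCs apart. Of the 12 S genes, 8 fell and 1 rose from hESCs to HEs of the GATA2-/- line, and 5 fell and 1 rose from hESCs to HPCs. All tested genes fell and rose at shares of 16.1% and 13.9% in HEs, and 16.4% and 14.2% in HPCs. The median log2 difference of the 12 was −1.07 in HEs and −0.80 in HPCs, against −0.02 and 0.00 over all tested genes. It was 1.37 and 0.95 for the 5 tested brakes, 0.95 and 1.07 for the G1 genes, and −0.41 and −0.91 for the G2/M genes.

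The MCM2-7 helicase, which unwinds DNA at the fork, gave most of the calls. MCM4 TPM was 277 and 261 in GATA2-/- hESCs, 99.3 and 97.2 in WT HEs, 115 and 75.3 in GATA2-/- HEs, 121 and 158 in WT HPCs, and 114 and 137 in GATA2-/- HPCs. The hESC libraries lay above all others, of which WT HPC replicate 2 was the highest. The difference was −1.52 ± 0.22 in HEs (adjusted p = 0.000992) and −1.10 ± 0.22 in HPCs (adjusted p = 0.00533, and 0.0554 without hESC replicate 1). MCM3 was 256 and 258 in GATA2-/- hESCs, 111 and 74.4 in WT HEs, 112 and 88.2 in GATA2-/- HEs, 92.9 and 112 in WT HPCs, and 82.6 and 120.1 in GATA2-/- HPCs, with differences of −1.36 ± 0.25 and −1.36 ± 0.25 (adjusted p = 0.00335 and 0.00334). MCM6 was 149.9 and 127 in GATA2-/- hESCs, 61.05 and 37.2 in WT HEs, 60.1 and 46.4 in GATA2-/- HEs, 47.9 and 51.9 in WT HPCs, and 52.8 and 56.8 in GATA2-/- HPCs, with differences of −1.37 ± 0.24 and −1.32 ± 0.24 (adjusted p = 0.0029 and 0.00349). MCM3 and MCM6 held in all fits without 1 library, and the hESC libraries lay above every HE and HPC library for each. MCM2 shares 23.6% of its exonic bases with ENSG00000285600 on the opposite strand. MCM5 fell in HEs and HPCs (−1.24 ± 0.31 and −1.19 ± 0.31), MCM2 in HEs (−0.89 ± 0.23) and MCM7 in HEs (−0.67 ± 0.21, adjusted p = 0.0416). Those 4 calls rested on single libraries: each ended without hESC replicate 1 (adjusted p 0.14 to 0.215), MCM5 and MCM2 in HEs also without HE replicate 2, MCM5 in HPCs also without HPC replicate 1 (0.119), and MCM7 in 8 of the 10 fits.

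PCNA, the sliding clamp of the fork, was 354 and 318 in GATA2-/- hESCs, 155 and 111 in WT HEs, 142 and 139 in GATA2-/- HEs, 155 and 214 in WT HPCs, and 157 and 202 in GATA2-/- HPCs. It fell from hESCs to HEs (−1.25 ± 0.22, adjusted p = 0.00281) and to HPCs (−0.91 ± 0.22, adjusted p = 0.0131, lost without either hESC library or HPC replicate 1 at up to 0.105). CDC6, which loads the helicase, was 88.97 and 83.9 in GATA2-/- hESCs, 43.9 and 18.1 in WT HEs, 43.5 and 22.3 in GATA2-/- HEs, 24.6 and 35.4 in WT HPCs, and 35.3 and 45.5 in GATA2-/- HPCs. It was lower in GATA2-/- HEs than in hESCs (−1.44 ± 0.43, adjusted p = 0.032), but without HE replicate 2 the difference was −0.97 (adjusted p = 0.202), and the call also ended without either hESC or either GATA2-/- HPC library. CDT1, its partner in licensing, was at 56.4 to 111 TPM, and the ribonucleotide reductase subunits RRM1 (49.8 to 79.6) and RRM2 (88.9 to 153) passed in no comparison, nor did CDT1.

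TYMS, which makes thymidylate, was the exception. Its TPM was 73.5 and 88.8 in GATA2-/- hESCs, 277 and 213 in WT HEs, 216 and 251 in GATA2-/- HEs, 201 and 238 in WT HPCs, and 233 and 238 in GATA2-/- HPCs. All 8 HE and HPC libraries were more than 2-fold above the hESCs, with a rise of 1.52 ± 0.18 in HEs (adjusted p = 0.000311) and 1.53 ± 0.18 in HPCs (adjusted p = 0.000301), called in every fit without 1 library. Other genes cover 47.9% of the exonic bases of TYMS, ENOSF1 on the opposite strand 39.9%, and the TPM of ENOSF1 moved the same way, from 13.2 and 22.2 in hESCs to 72.9 to 108 elsewhere. Without knowledge of strand the reads of the 2 genes cannot be told apart where they overlap.

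**Figure D3:**
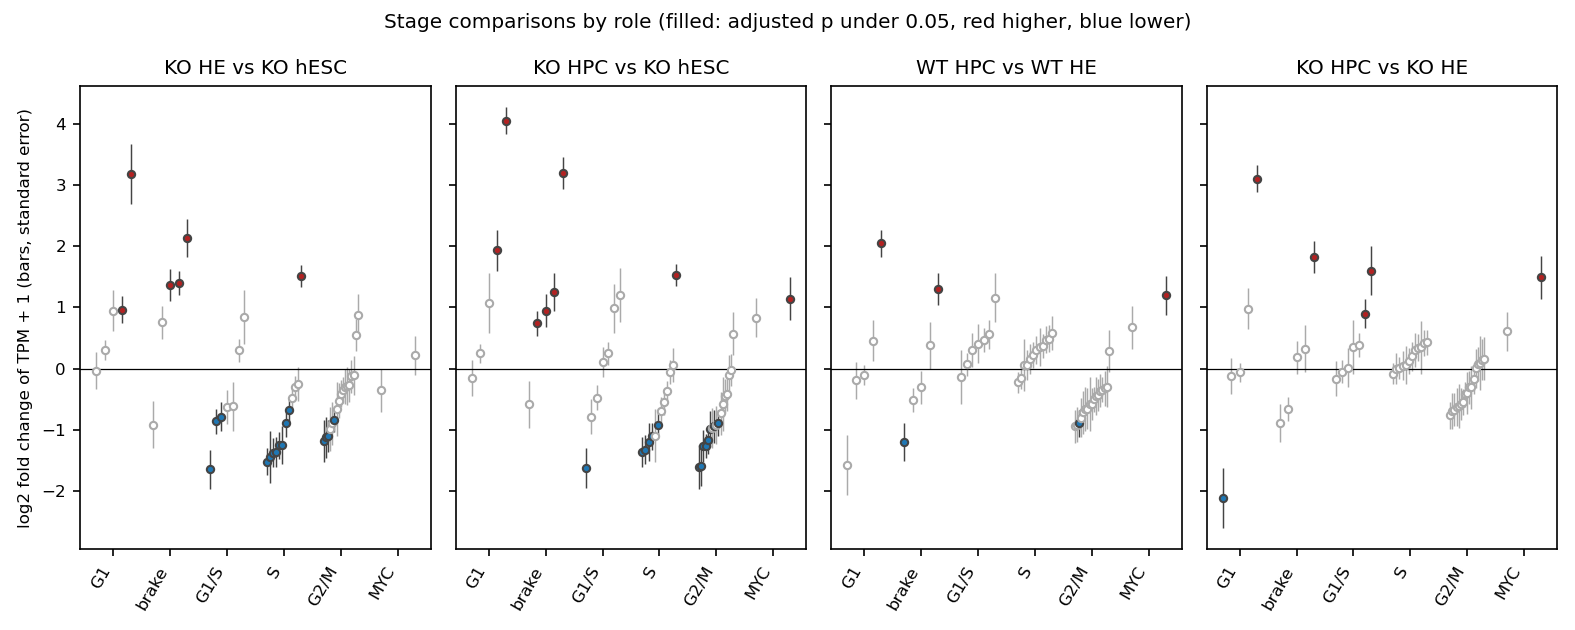
Log2 difference of TPM + 1 (vertical axis, bars are standard errors) of the 48 tested genes by role in the 4 stage comparisons, KO standing for GATA2-/-, with filled points for adjusted p under 0.05 (red higher, blue lower). Blue points stand in the S and G2/M columns of the comparisons with hESCs, where 8 and 5 of 12 S genes and 4 and 8 of 17 G2/M genes fell in HEs and HPCs. Of all tested genes 16.1% and 16.4% fell there. In the HPC and HE comparisons CCND3 and CDKN2D stand at the top.

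From HEs to HPCs no S gene passed in either genotype (limma, 0 of 12 also at an unadjusted p under 0.05 in each, against 22.4% of all genes in WT and 26.8% in GATA2-/-). The median was 0.27 in WT and 0.17 in GATA2-/-, but 0.59 and 0.55 between the tagged replicate 2 libraries and −0.01 and −0.19 between the replicate 1 libraries. In WT, 6 of the 12 had all HPC above all HE libraries against 20.2% of all genes, and in GATA2-/- 2 of 12 against 26.6%.

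Of the 17 G2/M genes, 4 fell in GATA2-/- HEs (CCNB1, BUB1, BUB1B, MYBL2) and 8 in GATA2-/- HPCs (CCNB1, CDC20, CDC25C, AURKB, BUB1B, BIRC5, FOXM1, MYBL2), and none rose. In the same comparisons with hESCs 16.1% and 16.4% of all tested genes fell, and 13.9% and 14.2% rose. CCNB1, the cyclin of mitotic entry, was 333 and 294 in GATA2-/- hESCs, 112 and 173 in WT HEs, 101 and 186 in GATA2-/- HEs, 91.7 and 85.8 in WT HPCs, and 135 and 80.1 in GATA2-/- HPCs. The hESC libraries were above all others. The difference from hESCs was −1.18 ± 0.34 in HEs (adjusted p = 0.0277) and −1.58 ± 0.34 in HPCs (adjusted p = 0.0075). In the HE comparison the call ended without either hESC library or HE replicate 1 (−0.74, adjusted p = 0.184), and in the HPC comparison without either hESC library or HPC replicate 2 (up to 0.0843). CDC20, the activator of the anaphase-promoting complex, was 227 and 227 in GATA2-/- hESCs, 103 and 141 in WT HEs, 75.8 and 171 in GATA2-/- HEs, 87.1 and 67.5 in WT HPCs, and 89.5 and 61.4 in GATA2-/- HPCs. The difference in HPCs was −1.60 ± 0.36 (adjusted p = 0.00943, lost without either hESC library or HPC replicate 2 at up to 0.0847). In HEs its difference of −0.99 ± 0.36 did not pass (adjusted p = 0.0681).

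MYBL2 and FOXM1 regulate the G2/M program. MYBL2 was 153 and 122 in GATA2-/- hESCs, 106 and 81.9 in WT HEs, 87.4 and 66.4 in GATA2-/- HEs, 69.6 and 61.4 in WT HPCs, and 57.3 and 56.1 in GATA2-/- HPCs, and fell from hESCs to HEs (−0.84 ± 0.20, adjusted p = 0.0134, 0.0995 without hESC replicate 1 and 0.0909 without HE replicate 2) and to HPCs (−1.26 ± 0.20, adjusted p = 0.00175, called in all 10 fits). FOXM1 was 101 and 65.9 in GATA2-/- hESCs, 65.8 and 76.9 in WT HEs, 55.95 and 66.8 in GATA2-/- HEs, 39.4 and 36.8 in WT HPCs, and 37.1 and 34.1 in GATA2-/- HPCs. All 4 HPC libraries lay below all HE and hESC libraries. FOXM1 fell from hESCs to GATA2-/- HPCs (−1.17 ± 0.22, adjusted p = 0.0039, called in all 10 fits) and from WT HEs to WT HPCs (−0.89 ± 0.22, adjusted p = 0.0371), and the GATA2-/- difference between HPCs and HEs was −0.76 ± 0.22 (adjusted p = 0.0545). The WT call was lost in 8 of the 10 fits, without any HE or HPC library of either genotype, with adjusted p 0.0551 to 0.195. Of FOXM1's exonic bases, 15.9% are shared with ITFG2 on the opposite strand.

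The spindle checkpoint kinases BUB1 and BUB1B were highest in hESCs. BUB1B was 74.7 and 104 in GATA2-/- hESCs, 39.1 and 38.8 in WT HEs, 36.6 and 45.3 in GATA2-/- HEs, 27.1 and 24.7 in WT HPCs, and 46.5 and 28.1 in GATA2-/- HPCs, lower in HEs (−1.10 ± 0.26, adjusted p = 0.0131) and in HPCs (−1.26 ± 0.26, adjusted p = 0.00663). Without hESC replicate 2 both calls ended (0.108 and 0.066), the HE call also without HE replicate 1 (0.0857). BUB1 fell in HEs (25.1 and 45.6 against 61.3 and 90.8 TPM, −1.12 ± 0.33, adjusted p = 0.0326), with 5 of the 10 fits losing the call (−0.70 without HE replicate 1). AURKB, BIRC5 and CDC25C, a chromosomal passenger kinase, its partner survivin and the phosphatase of CDK1, fell in HPCs by 0.89 ± 0.21, 0.94 ± 0.27 and 0.98 ± 0.29 on the log2 scale. Those 3 calls were lost without either hESC library or HPC replicate 2, BIRC5 and CDC25C also without HPC replicate 1 and CDC25C without either WT HE library, with adjusted p up to 0.0769, 0.154 and 0.153. MKI67 and TOP2A, which are often read as proliferation markers, passed in no comparison. MKI67 was 40.9 and 29.5 in GATA2-/- hESCs, 42.8 and 37.3 in WT HEs, 26.4 and 38.8 in GATA2-/- HEs, 28.3 and 17.8 in WT HPCs, and 41.1 and 25.4 in GATA2-/- HPCs. TOP2A was 94.9 and 141 in GATA2-/- hESCs, 88.9 and 107 in WT HEs, 46.7 and 113 in GATA2-/- HEs, 83.95 and 50.4 in WT HPCs, and 102 and 58.8 in GATA2-/- HPCs. CCNA2 (34.4 to 72.5 TPM), CCNB2 (42.4 to 106), CDK1 (54.5 to 120.3), CDC25B (13.7 to 42.8), AURKA (19.9 to 56.9) and PLK1 (57.2 to 109) did not pass either.

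From HEs to HPCs the G2/M genes lay lower, with FOXM1 in WT as the only call of the 17 in either genotype. Falls were called for 6.59% of all tested genes in WT and 7.24% in GATA2-/-. In WT 14 of the 17 had all HPC libraries below all HE libraries, where 26.1% of all genes did, and the median was −0.57. In GATA2-/- it was 6 of 17 against 24.4%, and the median was −0.40. Between replicate 2 libraries the medians were −0.91 and −0.92. Between replicate 1 libraries they were −0.29 in WT and 0.24 in GATA2-/-, so in GATA2-/- cells the direction turned with the replicate number. At an unadjusted p under 0.05, limma gave 5 of 17 in WT and 4 of 17 in GATA2-/-, where 22.4% and 26.8% of all genes had one.

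The replicate numbers separated S from G2/M genes within both stages. In HEs replicate 2 had the higher value for 12 (WT) and 16 (GATA2-/-) of the 17 G2/M genes and for only 1 and 3 of the 12 S genes. In HPCs it was reversed: replicate 2 was higher for 2 and 0 of the G2/M genes and for 11 and 12 of the S genes. Over all tested genes replicate 2 was higher for 30.9% to 38.1% in these 4 groups. In hESCs, whose headers lack the shared tag and differ from each other, replicate 2 was higher for 7 of 17 and 4 of 12. GATA2-/- HE replicate 1 stood apart from the other 3 HE libraries, with TOP2A at 46.7 against 88.9 to 113 TPM and CDC20 at 75.8 against 103 to 171.

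The mean log2 of the G2/M genes minus that of the S genes, each relative to its mean over 10 libraries, put these shifts on 1 scale. It was 0.09 and 0.70 in WT HEs, −0.21 and 0.75 in GATA2-/- HEs, −0.10 and −0.63 in WT HPCs, 0.15 and −0.64 in GATA2-/- HPCs, and −0.13 and 0.03 in hESCs. Replicate 2 HEs and replicate 2 HPCs stood at opposite ends, and the replicate 1 libraries of both stages lay between them. Genotype moved the value less than replicate number did within each stage. Hemoglobin transcripts also differed by replicate in HPCs, at 0.461% and 1.4% of TPM in WT and 0.709% and 1.58% in GATA2-/-, and their part in the difference was not tested.

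**Figure D4:**
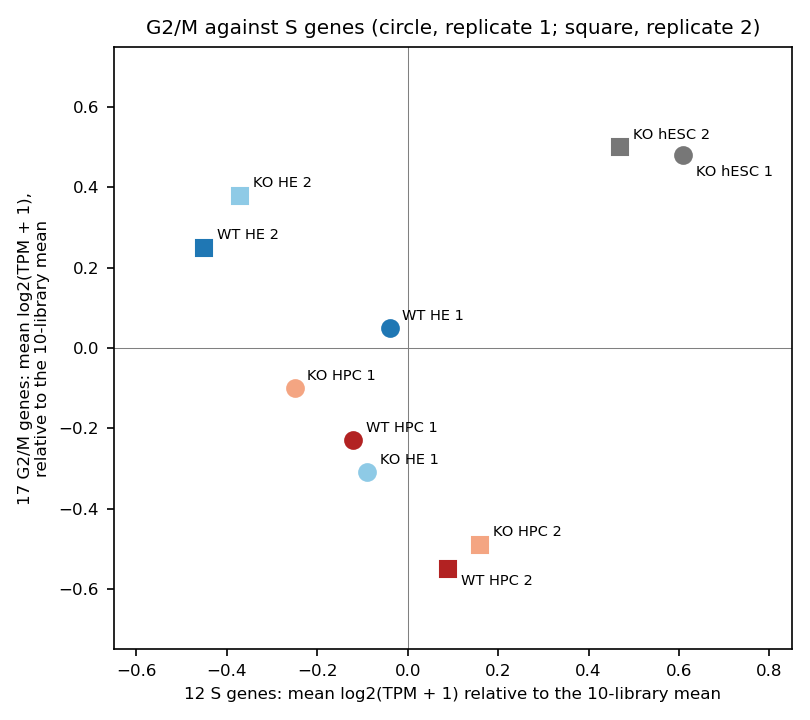
Mean log2(TPM + 1) of the 17 G2/M genes (vertical) against that of the 12 S genes (horizontal), each relative to its mean over the 10 libraries, with circles for replicate 1 and squares for replicate 2, and KO standing for GATA2-/-. The replicate 2 HEs sit at the upper left, the replicate 2 HPCs at the lower right, the hESCs at the upper right (S 0.47 and 0.61), and the genotypes of a stage and replicate number sit near each other except for the replicate 1 HEs (G2/M 0.05 and −0.31).

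MYC and MYCN, which raise ribosome production and nucleotide synthesis, had their highest group means in HPCs. MYC was 53.5 and 38.7 in GATA2-/- hESCs, 70.98 and 38.3 in WT HEs, 48.6 and 25.7 in GATA2-/- HEs, 83.7 and 84.3 in WT HPCs, and 106 and 96.4 in GATA2-/- HPCs. MYC rose from HEs to HPCs of the GATA2-/- line (1.49 ± 0.35, adjusted p = 0.0244) and was higher in those HPCs than in hESCs (1.14 ± 0.35, adjusted p = 0.0366). The WT difference was 0.68 ± 0.35 (adjusted p = 0.308). The HPC against HE call was lost without either hESC library, GATA2-/- HE replicate 2 or either GATA2-/- HPC library (1.04 and adjusted p = 0.154 without HE replicate 2), and the HPC against hESC call in 6 of 10 fits (up to 0.228 without hESC replicate 2). MYCN was 62.6 and 45.6 in GATA2-/- hESCs, 52.4 and 46.2 in WT HEs, 86.8 and 44.98 in GATA2-/- HEs, 139.8 and 94.1 in WT HPCs, and 106 and 86.1 in GATA2-/- HPCs. It rose from WT HEs to WT HPCs at the edge of the threshold (1.20 ± 0.32, adjusted p = 0.0497), and 8 of the 10 fits lost it, with 0.92 and adjusted p = 0.233 without WT HPC replicate 1. In GATA2-/- cells the difference was 0.61 ± 0.32 (adjusted p = 0.275).

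The genotypes were compared within each stage. In HEs limma called 0 of the 48 members, where 4 of 21543 genes passed (0.0186%), and 1 member, CCND3, had an unadjusted p under 0.05, against 4.85% of all genes. CCND3 was at 55.2 and 38.8 TPM in GATA2-/- HEs and 113 and 82.1 in WT HEs, a difference of −1.04 ± 0.22 (95% interval −1.55 to −0.53) with a limma adjusted p of 0.446. The interval excludes 0 but the difference did not pass the correction over all genes. Marker sums of blood cells also differed between the HE genotypes: 9 erythroid genes summed to 16.3 to 33.7 TPM in GATA2-/- HEs against 90.3 to 157 in WT HEs, 5 megakaryocyte genes to 31.1 to 54.4 against 103.6 to 123, and 8 pan-hematopoietic genes to 76.1 to 126 against 160 to 206.3. PTPRC, AHSP and SLC4A1 were at 0 in all 4 HE libraries. The part of these cells in the CCND3 difference was not tested.

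In HPCs CCND3 did not share that difference: it was 355 and 459 TPM in GATA2-/- and 416 and 390.1 in WT HPCs, a difference of 0.00 ± 0.22 (95% interval −0.51 to 0.51). The test of the difference between the stages gave 1.04 ± 0.32 for CCND3 with a limma adjusted p of 0.685. It was the only member with an unadjusted p under 0.05 in that test, where 5.95% of all genes had one, and limma called 0% of all genes.

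Other members whose HE groups did not overlap were few. Of the 48 tested, 5 lay lower in GATA2-/- HEs (CCND3, CDKN1A, CDKN2A, CDKN2D and RRM2), or 10.4% against 16.5% of all genes, and 2 lay higher (CCND2 and CDKN1B), or 4.17% against 13.8%. CDKN2C, which was not tested, also lay higher at 0.73 and 0.45 against 0 and 0.35 TPM. CDKN2D was 9.11 and 7.79 in GATA2-/- against 10.98 and 12.9 in WT HEs (−0.45 ± 0.26), and CDKN1A 23.3 and 28.6 against 31.6 and 33.6 (−0.33 ± 0.27). CDKN2A was listed at 0 in both GATA2-/- HE libraries against 1.02 and 0.30 in WT HEs. CCND2 (0.24 ± 0.30) and CDKN1B (0.03 ± 0.20) differed by no more than their standard errors, and CCND2 was at 29.2 and 28.2 against 28.2 and 20.5.

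In HPCs limma again called 0 of 48, where 13 of 21543 genes passed (0.0603%), and 0 of 48 had an unadjusted p under 0.05 against 8.94% of all genes. The groups did not overlap for 6 members that lay higher in GATA2-/- HPCs (12.5%, all genes 19.7%) and 6 that lay lower (12.5%, all genes 13%). The largest of the former were BUB1B at 46.5 and 28.1 against 27.1 and 24.7 (0.47 ± 0.26), CCNE2 at 9.73 and 10.2 against 9.05 and 6.10 (0.37 ± 0.44) and CDK6 at 14.9 and 15.2 against 14.3 and 9.41 (0.34 ± 0.33). The largest of the latter were CDKN2A at 0.59 and 0 against 1.23 and 0.99 (−0.74 ± 0.38), AURKB at 65.6 and 61.1 against 71.1 and 92.6 (−0.35 ± 0.21) and E2F1 at 17.4 and 23.2 against 23.8 and 27.9 (−0.34 ± 0.28). None of these passed.

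The median genotype difference of the 5 tested brakes was −0.33 in HEs and 0.07 in HPCs. It was −0.13 and 0.00 for the G1 genes, −0.11 and −0.05 for the G1/S genes, 0.01 and −0.03 for the 12 S genes, and −0.08 and 0.09 for the 17 G2/M genes, against −0.01 and 0.05 over all tested genes. The G2/M median in HEs was −0.33 between replicate 1 and 0.10 between replicate 2 libraries. The intervals leave room for differences of moderate size: that of MKI67 had limits of −1.04 and 0.42 in HEs and of −0.22 and 1.24 in HPCs. A p above the threshold does not show that the genotypes are alike.

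**Figure D5:**
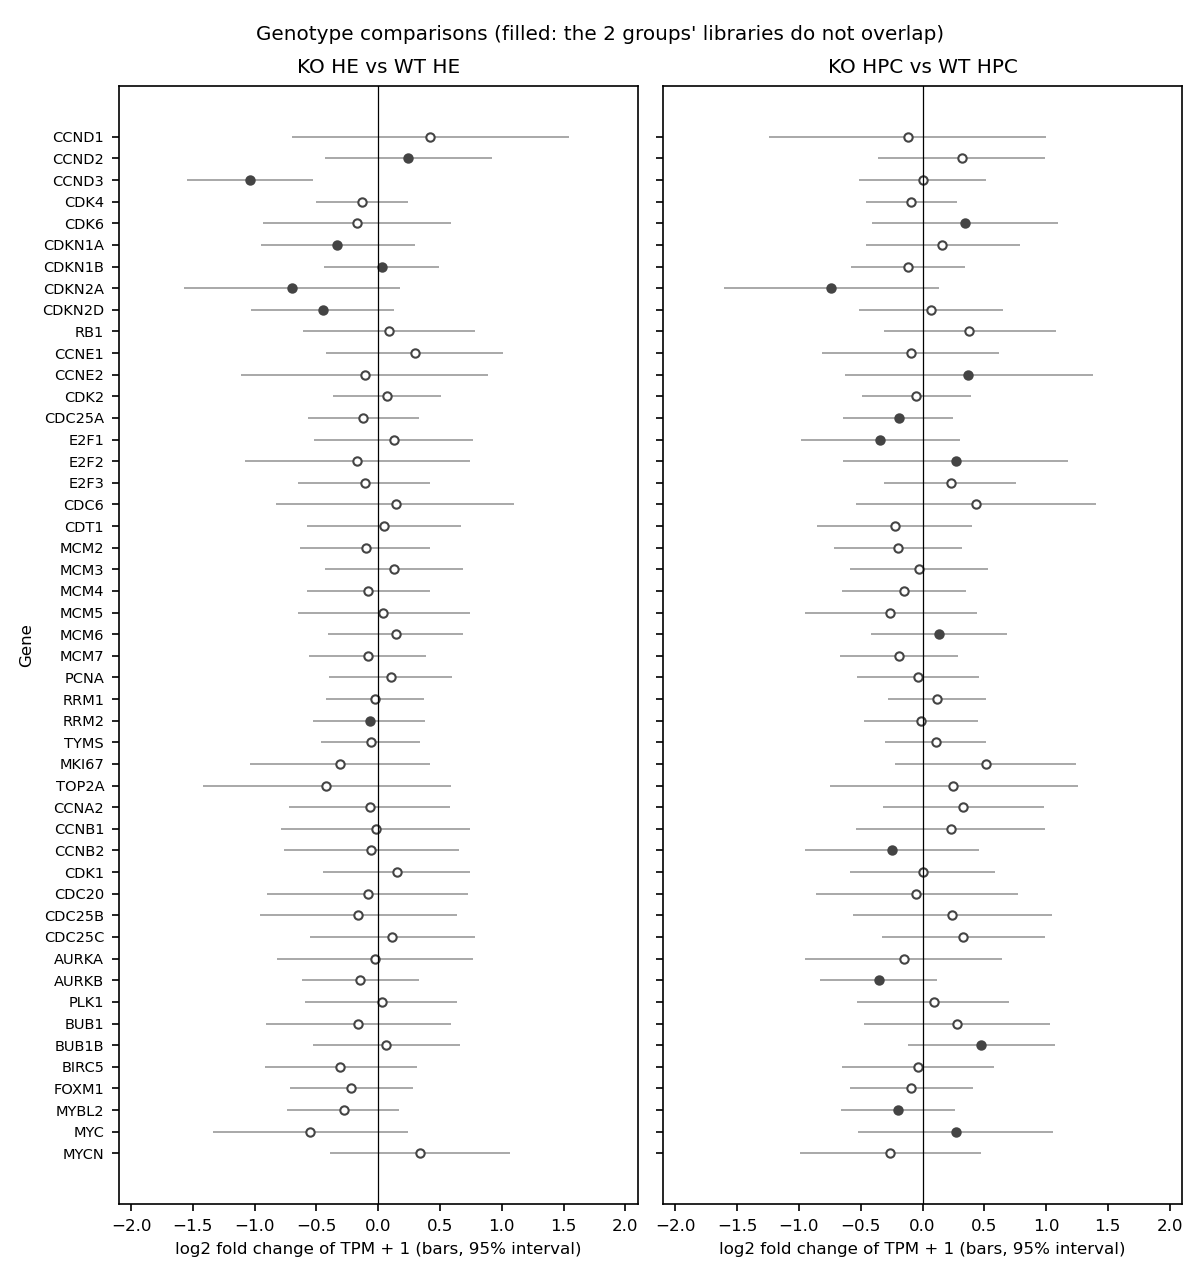
Log2 difference of TPM + 1 between GATA2-/- (KO) and WT (horizontal axis, bars are 95% intervals) for the 48 tested genes in HEs (left) and HPCs (right), with filled points where the libraries of the 2 genotypes do not overlap. In HEs CCND3 (−1.04) is the only gene whose interval excludes 0, and in HPCs every interval includes 0.

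Lists of other cell cycle genes, none of them members, were read in the same fit. Of 46 other S-phase genes, 19 fell and 0 rose from hESCs to GATA2-/- HEs (median −0.57) and 18 fell and 0 rose to HPCs (−0.58). Among all tested genes 16.1% fell and 13.9% rose in HEs, and 16.4% and 14.2% in HPCs. The falls in HEs were led by DSCC1, a loader of the clamp (7.37 and 6.33 against 34.1 and 31.4 TPM, −2.11 ± 0.33), and HELLS, a chromatin remodeler (19.7 and 14.02 against 87.0 and 59.4, −2.05 ± 0.31), and HELLS fell in HPCs as well (13.1 and 18.1 TPM, −2.15 ± 0.31). From HEs to HPCs 1 rose and 1 fell in WT (DUT 0.59 ± 0.15, TK1 −0.83 ± 0.20), and 1 rose and 3 fell in GATA2-/- (DBF4 0.82 ± 0.22, GINS4 −1 ± 0.20 and RAD51AP1 −0.94 ± 0.25 among them). The shares of all tested genes that rose and fell were 3.32% and 6.59% in WT, and 5.5% and 7.24% in GATA2-/-.

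Of 48 other G2/M genes, 8 fell and 1 rose from hESCs to HEs (median −0.39) and 14 fell and 1 rose to HPCs (−0.59). Over all tested genes 16.1% fell and 13.9% rose in HEs, and 16.4% and 14.2% in HPCs. The falls of this list in HEs were thus near the share of all genes. HMGB2, an abundant chromatin protein, rose in both (1.01 ± 0.21 and 0.70 ± 0.21). CKS2, a subunit of cyclin-dependent kinases (72.1 and 153 against 281 and 295 TPM, −1.45 ± 0.32), and ECT2 (−1.41 ± 0.37) led the falls in HEs, and DLGAP5 (−1.43 ± 0.40) and PTTG1, the securin (73.8 and 71.2 against 182 and 185, −1.33 ± 0.39), those in HPCs. From WT HEs to WT HPCs 2 fell (GTSE1 −1.23 ± 0.32, TMPO −0.67 ± 0.16), where 6.59% of all tested genes did. The median over the list was −0.43, with −0.18 between replicate 1 and −0.64 between replicate 2 libraries. In GATA2-/- limma called 0 (5 of 48 at an unadjusted p under 0.05, all genes 26.8%) with a median of −0.24, and these medians were 0.18 and −0.63, the same turn as among the members.

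Inhibitors and pocket proteins outside the members, 14 with 13 tested, were led by CDKN1C (p57), an imprinted CDK inhibitor. CDKN1C was 7.24 and 5.23 TPM in hESCs, 77.9 and 62.2 in GATA2-/- HEs (3.30 ± 0.32, adjusted p = 0.000113) and 167 and 94.1 in GATA2-/- HPCs (4.14 ± 0.32, adjusted p = 3.64e-05). CCNG2, a cyclin linked to cell cycle exit, rose from hESCs to HEs (2.60 ± 0.29) and HPCs (1.62 ± 0.29) and fell from WT HEs to WT HPCs (−1.23 ± 0.29). PKMYT1, the kinase that inhibits CDK1, fell from hESCs to HEs and HPCs (−1 ± 0.18 and −1.01 ± 0.18) and rose from WT HEs to WT HPCs (28.9 and 30.7 to 65.5 and 60.3 TPM, 1.05 ± 0.18, adjusted p = 0.0081), and E2F4 fell in GATA2-/- (−1.01 ± 0.18). In all 4 rose and 1 fell in HEs against hESCs, 3 and 1 in HPCs against hESCs, 1 and 1 in the WT EHT and 0 and 1 in the GATA2-/- EHT. For all tested genes the shares were 13.9% and 16.1%, 14.2% and 16.4%, 3.32% and 6.59%, and 5.5% and 7.24%, in the same order.

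Of 20 p53 response genes, 5 rose and 5 fell in HEs against hESCs and 3 and 4 in HPCs. All tested genes had shares of 13.9% and 16.1% in HEs and 14.2% and 16.4% in HPCs, near those of the list in HPCs. BTG2, an antiproliferative gene, rose at each step: it was 3.93 and 3.72 TPM in hESCs, 27.1 and 17.7 in GATA2-/- HEs (2.25 ± 0.24) and 102 and 114 in GATA2-/- HPCs (2.24 ± 0.24 against HEs, adjusted p = 0.000663), and 29.5 and 21.9 in WT HEs and 107 and 119 in WT HPCs (2.1 ± 0.24, adjusted p = 0.00108). BTG2 was the only one called from WT HEs to WT HPCs, where 3.32% of all tested genes rose and 6.59% fell. In the GATA2-/- EHT, where 7.24% of all tested genes fell, TP53I3 did so (−1.24 ± 0.32). GADD45A rose (2.25 ± 0.17 in HEs and 2.53 ± 0.17 in HPCs against hESCs), while AEN (−2.17 ± 0.19), RRM2B (−2.17 ± 0.29) and, in HPCs, PHLDA3 (−1.40 ± 0.23) fell.

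Of 10 growth genes regulated by MYC, 7 fell and 1 rose from hESCs to GATA2-/- HEs (median −0.90) and 4 fell and 1 rose to HPCs (−0.43). Shares of all tested genes were 16.1% lower and 13.9% higher in HEs, and 16.4% and 14.2% in HPCs. The riser was ODC1 of polyamine synthesis (1.90 ± 0.23 and 1.49 ± 0.23), and the ribosome assembly gene RRS1 led the falls (65.4 and 46.6 to 12.8 and 10.4 TPM, −2.16 ± 0.28), followed in HEs by NOP56 (−1.23 ± 0.21) and in HPCs by CAD (−1.11 ± 0.23). From HEs to HPCs limma called 0 in WT (0 at an unadjusted p under 0.05, all genes 22.4%, with 8 of 10 differences above 0). In GATA2-/- it called 1, NOP58 (0.73 ± 0.19), where 5.5% of all tested genes rose. None of the 5 lists held a call between genotypes in either stage. At an unadjusted p under 0.05 limma gave 1, 2, 0, 0 and 0 genes in HEs and 5, 4, 1, 0 and 0 in HPCs, in the order of the lists above, against 4.85% and 8.94% of all genes.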

How the data were processed

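RNA of hESCs and sorted HEs and HPCs was sequenced as single-end TruSeq libraries on a MiSeq. Per the study's methods, reads were trimmed with Trimmomatic and aligned with Bowtie to hg19, and the submitters' processing notes also name RSEM and mm10, whose roles are not given in the sources used here, nor is read depth. The deposited values are TPM per Ensembl gene, made by the authors, 1 table per library. The study's Cuffdiff comparisons were not repeated. From the TPM, log2(TPM + 1) of the 21543 genes (of 56266) that reached 1 TPM in 2 or more libraries was fitted in limma 3.58.1 (R 4.3.3, trended variance) over all 10 libraries with 1 mean per group. Genes were called at a Benjamini-Hochberg adjusted p under 0.05 over all tested genes, and a difference is on the log2(TPM + 1) scale, which understates changes of low genes. Counts of groups that do not overlap, promoter letters (RefSeq, GRCh38.p14) and gene coordinates and exon overlaps (GENCODE, GRCh37) were computed in Python 3.11.15. The limma fit was tested on simulated data for the comparison of WT HPCs with WT HEs only, and the other steps were not tested in that way. The members and lists were chosen with earlier results of these data known. All 49 members could be named. In each role and comparison the called genes with the largest differences, up to 3 higher and 3 lower, were given with their values, and where none was called the 3 highest and 3 lowest with groups that do not overlap. Of the other lists (S-phase, G2/M, inhibitors, p53 response, MYC-regulated growth) up to 2 higher and 2 lower called genes were named, and of marker lists the first gene. Some items are not reported here. Replicate numbers were not used as pairs, since the labels name no shared batch and not every correlation was over 0.1, although replicate 2 of each HE and HPC group shares a header tag: replicate differences correlated at 0.123 between WT and GATA2-/- HEs, at 0.0551 between the HPCs, and at −0.0141 to 0.0317 otherwise. Alternatives were another pseudocount, no filter, quantile scaling, totals without mitochondrial and hemoglobin genes, a fit on the libraries compared, variance without trend, a replicate block and leaving out each library.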

Additional observations from a re-analysis of the deposited data

How the results depend on the processing

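Between genotypes no member was called in HEs, in HPCs or in the test of the difference between them under any alternative run, and members with an unadjusted p under 0.05 numbered 1 to 5 in HEs and 0 to 3 in HPCs, the highest counts being those without GATA2-/- HE replicate 2 and without GATA2-/- HPC replicate 2. Of 1127 alternative values of 65 member differences, 933 kept direction and side of the threshold, 194 kept only the direction and 0 reversed. The 65 were called or, in comparisons without a call, had groups that do not overlap. Such groups cannot reverse without 1 library, and several alternatives leave the difference itself unchanged, so the 0 says little. The median of all 17 G2/M genes between HE genotypes was 0.28 without GATA2-/- HE replicate 1 and −0.46 without replicate 2. From WT HEs to WT HPCs the 5 calls became 3 with a pseudocount of 0.1, 2 without the filter, 2 without the trend and 0 with only the libraries compared. From GATA2-/- HEs to HPCs the 6 became 2 without the filter and 0 with only the libraries compared. In those fits on 4 libraries limma called 0 of all genes, with 12 and 10 members (25% and 20.8%) at an unadjusted p under 0.05, against 20.5% and 23.4% of all genes. From hESCs to HEs the 21 became 12 with only the libraries compared. Without 1 library the counts ran from 1 to 4, 2 to 6, 10 to 20 and, from hESCs to HPCs, 9 to 25, and were 0 in the genotype tests.

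With the replicate block the calls were 0 and 0 between genotypes in HEs and HPCs, 5 and 7 in the WT and GATA2-/- EHT, 23 and 25 against hESCs, and 0 for the difference of genotype effects. A block by replicate number within HEs and HPCs, added after the data were seen, gave 0, 0, 6, 5 and 0. Totals without mitochondrial and hemoglobin genes moved the median of all genes from 0.03 to 0.15 between GATA2-/- HPCs and HEs, and from 0.05 to 0.14 between GATA2-/- and WT HPCs, where the S median went from −0.03 to 0.06. With 2 libraries a group and unknown depth, low genes such as CDKN2A, CDKN2C and E2F2 are the least certain, and the cause of these changes was not tested.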
